A study of Mus musculus with 15 samples.

Results

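The data are the 6 libraries of mouse granulosa cells that received scrambled siRNA, 3 taken at 30 h and 3 at 54 h, of 15 libraries in the series, and the comparison asks what changed in control cells over that stretch of culture. They were chosen by their sample titles alone, and all 24490 genes counted were kept except the 92 ERCC spike-in features. The cells were primary ovarian granulosa cells from RjOrl:SWISS females aged 8 weeks, carrying no engineered allele. Every group had 30 pmol of siRNA delivered with Lipofectamine RNAiMax, and in the 6 libraries described here it was a non-targeting siRNA. The 6 libraries with Foxl2 siRNA at the same times serve only as a second look at the time effect. The extraction protocol mentions 30 h only, so the later time is known from sample titles. Whether replicates came from separate cultures or animals is not stated, so each p-value refers only to the variation among the libraries, and part or all of that may be technical.

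Granulosa cells surround the oocyte, convert androgens to oestrogens, and make inhibin, activin and follistatin. Plated on plastic they attach, spread and build actin stress fibres. Spread cells keep the co-activators YAP and TAZ in the nucleus, where they work through TEAD factors on genes such as Cyr61, Ctgf and Ankrd1. A second actin-sensing route, through SRF and its MRTF co-factors, drives the genes of actin and its partners. FOXL2 holds granulosa cells in their female fate.

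The 6 libraries held 44.98 M to 59.44 M gene counts. Levels are counts scaled to a common library depth (CPM). Markers of granulosa cells were present: Inha, the inhibin alpha subunit, lay at 1912 to 1987 CPM, Foxl2 at 144 to 190 CPM and Nr5a1, encoding SF-1, at 152 to 164 CPM. Fshr, the FSH receptor, was low at 0.24 to 0.651 CPM, and Dmrt1, a male-fate factor, had no count in any of the 6. The largest axis of difference was not time. Principal component 1 of log2 CPM, with 55.8% of the variance, set both replicate 1 libraries (34.4 at 30 h and 19.6 at 54 h) apart from the other 4 (-5.6 to -23.6). Component 2, with 21.4%, separated the times, at -10.3 to -13.1 for 30 h and 5.5 to 20.2 for 54 h. Libraries of the same number deviated together from their group means, with correlations over genes of 0.682, 0.56 and 0.189 for numbers 1, 2 and 3, so the numbers were taken as pairs and the fit with the number as a block is given beside the unblocked one for each list counted and each gene named for a call it changes. The replicate 3 library of 30 h correlated more with the replicate 2 library of 54 h (0.377) than with its own number.

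**Figure D1:**
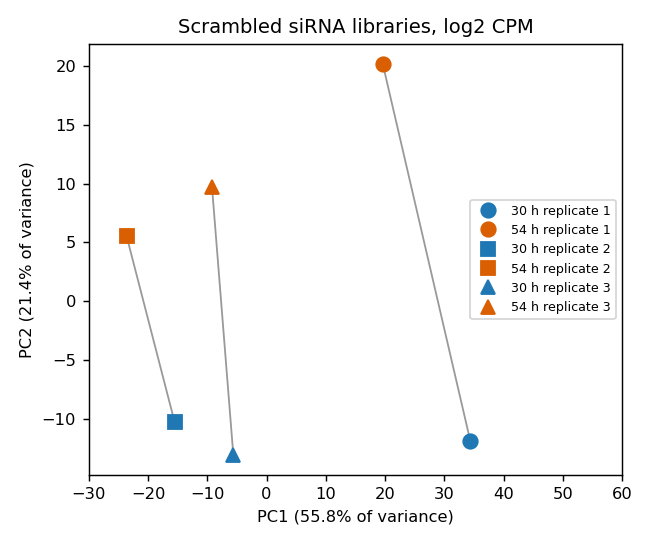
Principal components 1 and 2 of log2 CPM (scores, with their share of the variance) for the 6 scrambled siRNA libraries, coloured by time, with a shape and a line for each replicate number. Both replicate 1 libraries lie to the right on PC1 (34.4 and 19.6), while on PC2 all 54 h libraries lie above all 30 h libraries.

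Small shifts made up most of the difference between the times. Of 14407 genes tested, 206 (1.43%) passed an adjusted p of 0.05 in edgeR's quasi-likelihood test, 110 higher (0.764%) and 96 lower (0.666%) at 54 h, and their median fold change was 1.33. At least a 2-fold difference was seen for 12 of the higher and 4 of the lower genes. With the replicate number as a block 1586 genes passed (11%), 896 higher (6.22%) and 690 lower (4.79%), including all of the 206, at a median fold change of 1.2. The 30 h and 54 h libraries did not overlap for 3335 genes (23.1%), among them all of the 206. For a called gene, lack of overlap is therefore no further evidence. The unblocked count leaned on few libraries: it was 34 without the replicate 1 library of 54 h, 39 without the replicate 2 library of 54 h, and 0 in edgeR without either replicate 3 library, where 1640 (30 h left out) and 1462 (54 h left out) genes had an unadjusted p under 0.05, against 2373 with all 6. DESeq2 called 766 genes on the 6 libraries, and pooling the spread of all 15 libraries in edgeR left 1.

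Among the genes with the largest rise, Grem1 (chr2:113748675-113758648, mm10) encodes gremlin, a secreted BMP antagonist made by granulosa cells. It measured 27.1, 33.7 and 32.3 CPM in replicates 1 to 3 at 30 h and 89.9, 85.8 and 92.5 CPM at 54 h. The groups were far apart: the means were 31 ± 3.49 and 89.4 ± 3.37 CPM (SD, n = 3), a 2.88-fold rise with a log2 change of 1.53 ± 0.08 (SE) and an adjusted p of 0.00314. Plce1, a phospholipase C tied to Ras signalling, went from 10.3, 13.5 and 11.7 CPM to 27.2, 29.7 and 27.2 CPM, a 2.38-fold rise (adjusted p 0.00816). Ptger3, a prostaglandin E2 receptor, went from 2.52, 2.36 and 2.62 CPM to 6.84, 5.3 and 5.66 CPM (2.37-fold, adjusted p 0.013). In both genes, as in every called gene that rose, the lowest 54 h library exceeded the highest 30 h library.

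Camkv, a pseudokinase related to calmodulin kinases, rose from 0.828, 0.89 and 0.846 CPM to 2.49, 2.57 and 2.4 CPM (2.91-fold, adjusted p 0.00816). Hdac9, a class IIa histone deacetylase, rose 2.82-fold, and Cd36, a fatty acid and thrombospondin receptor, rose 2.38-fold. Kl, encoding the FGF23 co-receptor klotho, rose 2.24-fold, and Col10a1, a collagen of hypertrophic cartilage, rose 1.99-fold from 4.62 to 5.49 CPM at 30 h to 8.54 to 12.2 CPM. Zpld1 rose 2.48-fold and Tmem150b 2.18-fold. Gm4788 rose 3.05-fold, but similar genes nearby could share its reads.

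Among the leading lower genes the steepest was Lce1g (chr3:92750151-92752338), a late cornified envelope gene. It went from 24.3, 13 and 18.4 CPM to 3.93, 4.38 and 4.15 CPM, a 4.47-fold fall (log2 -2.16 ± 0.22, adjusted p 0.013), and its near-identical Lce1 neighbours could share its reads. Egf, a growth factor of the epidermal growth factor receptor, fell 2.25-fold, from 44.1, 30.2 and 35.6 CPM to 17, 15.4 and 16.5 CPM (adjusted p 0.0152). Its receptor gene Egfr rose from 72.1, 79.7 and 75.5 CPM to 93.2, 92.4 and 92.7 CPM (1.22-fold, adjusted p 0.0286). Rasgrp3, a Ras and Rap activator, fell 1.77-fold and Ccl17, a chemokine, 1.72-fold. Gadd45g, a stress and growth arrest gene, fell 1.68-fold, from 33.3 to 38.4 CPM down to 20.2 to 22.6 CPM. Cyp26b1, which degrades retinoic acid, fell 1.68-fold from 614, 497 and 571 CPM to 400, 287 and 317 CPM (adjusted p 0.0492). Unc5d, a netrin and Flrt receptor, Pcdh9, a protocadherin, Per2, a circadian clock repressor, and Tnfrsf21, a death receptor, fell by 1.61- to 1.7-fold. The remaining 2 of the 12, Ankrd1 and Cyr61, belong with the actin-linked genes described next.

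**Figure D2:**
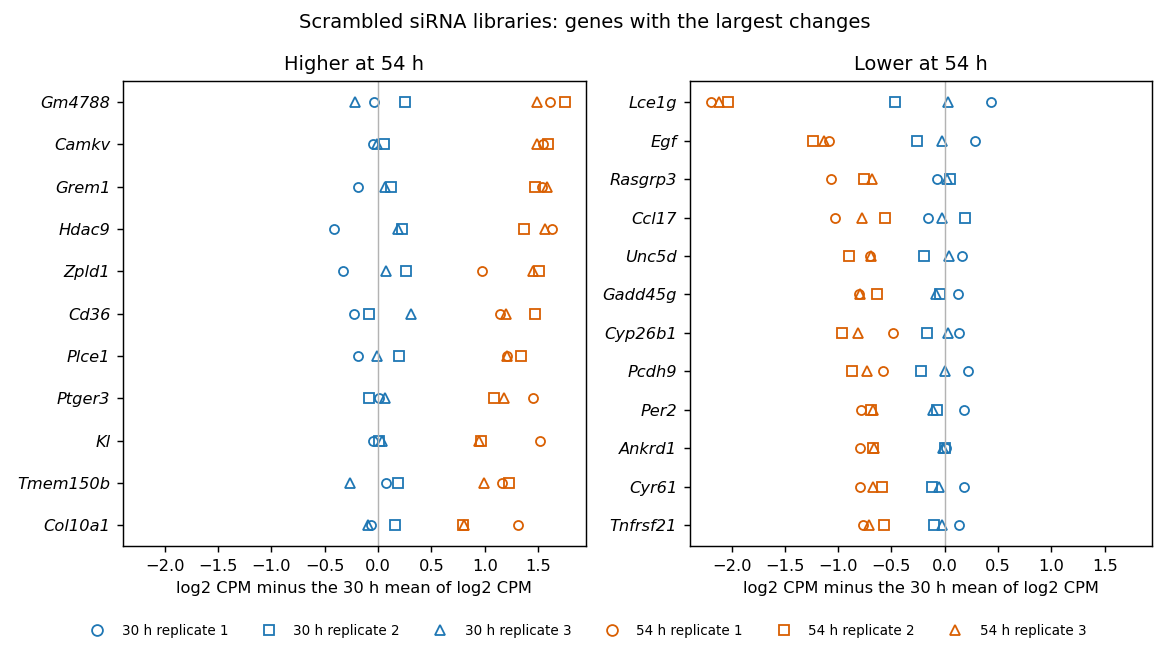
For 11 of the 12 genes with the largest rise (left) and the 12 with the largest fall (right) among called genes with a mean of at least 1 CPM at the higher time, the log2 CPM of each library minus the gene's 30 h mean (x axis), with colour for time and shape for replicate number. In all 23 genes drawn, as in all 206 called genes, the 3 libraries of 54 h lie on 1 side of the 3 libraries of 30 h. The falls drawn other than Lce1g and Egf are under 2-fold.

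Some targets of YAP and TEAD fell. Of 23 listed targets tested, 5 passed lower and 0 higher, and 13 passed lower with the block, again with 0 higher. Over all tested genes 0.764% passed higher and 0.666% lower, and 6.22% and 4.79% with the block. These shares are the background for this and every later list count. The median log2 change of the targets was -0.19, against -0.00 over all tested genes, and it lay between -0.23 and -0.18 under all alternatives run. The list, like every list used here, was chosen with earlier results of these data known, so its counts and median are no independent evidence. Ankrd1 (chr19:36111965-36119844), a muscle and stretch-responsive ankyrin repeat protein, measured 531, 525 and 520 CPM at 30 h and 303, 329 and 332 CPM at 54 h. The fall was 1.63-fold, with a log2 change of -0.71 ± 0.04 and an adjusted p of 0.00444, and replicates within a time differed by far less than the times did. Cyr61 (chr3:145646971-145649985), a secreted matricellular protein, fell from 439, 357 and 373 CPM to 223, 258 and 244 CPM (1.61-fold, adjusted p 0.0232). Dlc1, a tumour suppressor of cell migration, fell 1.46-fold from 169, 152 and 161 CPM to 115, 106 and 108 CPM. Amotl2, an angiomotin that holds YAP in the cytoplasm, fell 1.26-fold from 698, 686 and 674 CPM to 567, 538 and 535 CPM, and Ajuba, a LIM protein of the same pathway, fell by 0.30 on the log2 scale. Ctgf, a close relative of Cyr61, measured 676, 524 and 585 CPM and then 492, 472 and 468 CPM, without overlap but passing with the block alone (adjusted p 0.00594, against 0.135 unblocked). F3, tissue factor, also passed with the block alone, at 57.7 to 89 CPM and then 42.4 to 47 CPM (0.000558 against 0.0705). The genes of the co-activators themselves did not pass in either fit: Yap1 had a log2 change of 0.03 and Wwtr1, encoding TAZ, of -0.04.

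TEAD factors recognise the MCAT element, CATTCC, so the promoters of 3 of the 5 called targets are shown to place that element. Dlc1 is not shown, and the window of Amotl2 lies inside the gene as annotated and is not shown either. Each line gives the 250 bases before the gene start, 5′ to 3′ on the gene's strand, from RefSeq's GRCm38.p6 annotation, the patch release of mm10. Capitals mark CATTCC or its reverse complement, and in Cnn2 the CArG box that SRF binds. Matches are descriptions, not shown binding sites.
Ankrd1: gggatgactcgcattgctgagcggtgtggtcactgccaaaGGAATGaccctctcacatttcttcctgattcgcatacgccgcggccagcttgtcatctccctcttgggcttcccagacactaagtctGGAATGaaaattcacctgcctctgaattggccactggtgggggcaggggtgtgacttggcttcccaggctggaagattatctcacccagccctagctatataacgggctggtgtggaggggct
Cyr61: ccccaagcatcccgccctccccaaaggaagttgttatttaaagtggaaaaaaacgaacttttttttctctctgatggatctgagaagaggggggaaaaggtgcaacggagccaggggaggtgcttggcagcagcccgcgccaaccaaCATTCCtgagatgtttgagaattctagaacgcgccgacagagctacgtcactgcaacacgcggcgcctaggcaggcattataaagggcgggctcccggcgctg
Ajuba: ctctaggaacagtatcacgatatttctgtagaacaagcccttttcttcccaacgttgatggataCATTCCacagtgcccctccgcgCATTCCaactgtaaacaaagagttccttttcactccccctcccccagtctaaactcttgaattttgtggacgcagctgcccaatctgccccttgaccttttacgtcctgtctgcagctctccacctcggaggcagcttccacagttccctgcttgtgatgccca
Cnn2: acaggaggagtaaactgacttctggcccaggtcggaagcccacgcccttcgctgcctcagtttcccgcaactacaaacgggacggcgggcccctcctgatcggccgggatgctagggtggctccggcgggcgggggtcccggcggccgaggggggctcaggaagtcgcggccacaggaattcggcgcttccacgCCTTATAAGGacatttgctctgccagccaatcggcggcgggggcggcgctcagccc
They lie at chr19:36119845-36120094 (minus strand), chr3:145649986-145650235 (minus), chr14:54577662-54577911 (minus) and chr10:79988350-79988599 (plus). Ankrd1 holds 2 matches, whose first bases lie 210 and 123 bases before the start, and Ajuba holds 2, at 186 and 164 bases. Cyr61, listed by RefSeq as Ccn1, has 1 match at 103 bases. Of all 27025 genes with a window in RefSeq's promoter table, 14.4% held CATTCC on either strand, and 12.8% of the 11282 tested genes with a window did; for 54% of these the window ends at the annotated start of the gene. Of the YAP and TEAD targets with a window 9 of 15 held it (60%), among them the 4 called ones with a window. For 3 of these 4 the window ends at the annotated start of the gene, and the other is Amotl2. The list was assembled from known targets, with earlier results of these data known, so its share is no independent evidence. Binding of TEAD factors was not tested. The CArG box, searched on both strands and able to share letters with CATTCC, stood in 1.62% of all windows. It stood in 5 of 26 actin-linked genes with an entry (19.2%) and in 0 of the 15 YAP and TEAD targets. Of the 2 called actin-linked genes with an entry 1 held it, Cnn2, starting 56 bases before the gene. CATTCC stood in 8 of the same 26 actin-linked genes (30.8%), so the motifs did not divide the lists cleanly.

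Some genes of the actin cytoskeleton fell. Of 31 actin and myosin genes tested, 3 fell and 0 rose, 20 fell with the block, and 30 had a negative log2 change, with a median of -0.23 that ranged from -0.33 to -0.12 over the alternatives. Actb, cytoplasmic beta-actin, went from 2581, 2454 and 2554 CPM to 1881, 2036 and 1893 CPM (1.31-fold lower, adjusted p 0.0151). Cnn2, calponin 2, fell 1.46-fold from 274, 251 and 266 CPM to 163, 196 and 181 CPM (adjusted p 0.0241), and Tpm1, tropomyosin 1, fell 1.25-fold from 1413, 1312 and 1356 CPM to 1032, 1136 and 1098 CPM (adjusted p 0.0305). The groups did not overlap for any of these 3, as for every called gene. The summed level of the list was 19485 to 19873 CPM at 30 h and 15109 to 17474 CPM at 54 h.

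Further members passed with the block alone. Actg1, gamma-actin, measured 5251, 4404 and 4877 CPM and then 3957, 4096 and 3969 CPM (0.0103 with the block, 0.0904 without). Cald1, Vim, Myh9 and Tpm4, encoding caldesmon, vimentin, non-muscle myosin IIA and tropomyosin 4, had blocked log2 changes of -0.36, -0.28, -0.22 and -0.19. Srf, the transcription factor of the CArG box, had 64.1 to 74.2 CPM at 30 h and 57 to 61.9 CPM at 54 h (0.0278 with the block, 0.134 without), and its co-factor Mkl1 had a blocked log2 change of -0.21 ± 0.04. Acta2, smooth muscle alpha-actin, fell within each pair, from 533 to 263 CPM, from 820 to 677 CPM and from 754 to 476 CPM, so the groups overlapped (blocked adjusted p 0.00422, unblocked 0.43). Acta2, Tagln, Cnn1, Actg2, Myh11 and Lmod1 also mark smooth muscle and pericytes. Of the 14 members of that marker list tested, 0 passed unblocked and 7 were lower with the block. The median log2 change of this marker list was -0.43, between -0.87 and -0.09 over the alternatives, against -0.23 for the actin and myosin list. Its summed level was 1183, 1885 and 1747 CPM in replicates 1 to 3 at 30 h and 659, 1630 and 1162 CPM at 54 h. Myh11, a defining marker of that cell type, measured 17.1, 75.5 and 64.9 CPM and then 12.3, 69.9 and 39.8 CPM. Cspg4, the other defining marker, fell in number 3 only, at 1.16, 3.58 and 3.13 CPM and then 1.27, 3.59 and 2.46 CPM (without TMM scaling). The part of such cells in the actin-linked result was not tested. In bulk RNA, fewer cells of a type and less RNA per cell cannot be told apart.

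**Figure D3:**
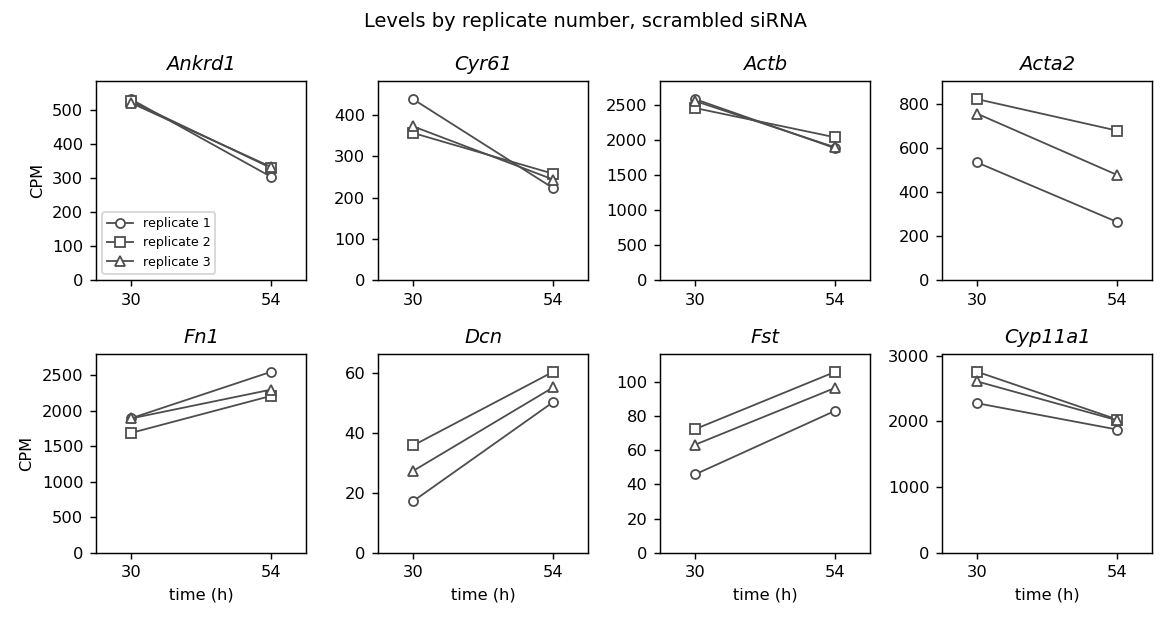
Levels (CPM, y axis) at 30 h and 54 h (x axis) of 8 genes, with a line joining the libraries of each replicate number. Ankrd1, Cyr61 and Actb separate the times in all libraries, whereas Acta2 falls within each number while the numbers stay apart; Fn1, Dcn and Fst go up and Cyp11a1 goes down in each number.

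Adhesion genes went both ways. Of 38 integrin and focal adhesion genes tested, 2 rose and 1 fell, and 4 rose and 13 fell with the block. Itgb3, the integrin beta 3 subunit of the vitronectin receptor, rose from 70.9, 62 and 72.1 CPM to 124, 116 and 114 CPM (1.73-fold, adjusted p 0.00816). Itga2, the alpha 2 subunit of a collagen receptor, rose 1.43-fold (adjusted p 0.0473). The scaffold gene Bcar1, encoding p130Cas, fell from 229, 200 and 210 CPM to 157, 159 and 155 CPM (1.36-fold, adjusted p 0.0182). With the block several intracellular components of focal adhesions were lower. Tgfb1i1 (Hic-5), Fermt2 (kindlin 2), Zyx (zyxin), Actn1 (alpha-actinin 1), Ptk2 (focal adhesion kinase), Ilk and Tln1 (talin 1) had log2 changes between -0.40 and -0.14. Epha2, an ephrin receptor, fell 1.34-fold and Jam2, a junction adhesion molecule, 1.25-fold, in both fits.

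Of 34 early-response and negative feedback genes of the ERK pathway tested, 2 fell and 0 rose, 11 fell with the block, and the median log2 change was -0.18. Dusp10, a phosphatase of JNK and p38, fell from 30.6, 29.9 and 30.7 CPM to 26.5, 23.9 and 23.8 CPM (1.23-fold, adjusted p 0.0478), and Klf6, a zinc finger factor, fell 1.14-fold (adjusted p 0.049). With the block Spry2, an inhibitor of receptor tyrosine kinase signalling, was lower at 48.4 to 58.6 CPM against 62.4 to 76.5 CPM (0.000172, against 0.0982 unblocked). Dusp1, a MAP kinase phosphatase, was lower at 39.5 to 40.6 CPM against 51.3 to 73.9 CPM (0.00122, against 0.0755). Igf1r, the IGF1 receptor, fell in both fits, from 88.9, 84.8 and 87.1 CPM to 65.2, 65.9 and 65 CPM (1.33-fold, adjusted p 0.00725).

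Of 30 genes of p53 signalling and apoptosis tested, 0 passed in the unblocked edgeR test and 11 were lower with the block, with a list median of -0.10. Among them were Cdkn1a, the p21 cell cycle inhibitor (282, 264 and 284 CPM, then 243, 251 and 237 CPM, blocked adjusted p 0.0226), and Bax, a death effector (blocked log2 change -0.16). Of 42 mitosis genes 4 were lower with the block, Ube2c the most (106, 83.8 and 87.3 CPM, then 80.9, 70.5 and 72.5 CPM), and of 42 DNA replication genes 1 was lower, the ligase Lig1. Of all tested genes 4.79% were lower with the block, a share that the replication list did not exceed. The mitosis and replication lists had 0 calls in the unblocked edgeR test, where the adjusted p was 0.175 for Ube2c and 0.161 for Lig1.

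Of 46 interstitial matrix genes tested, 0 passed unblocked, and 20 were higher and 0 lower with the block. The list median was 0.24, and it ran from -0.03 to 0.49 when single libraries were left out. Fn1, fibronectin, measured 1892, 1686 and 1890 CPM and then 2547, 2208 and 2296 CPM, without overlap (blocked adjusted p 0.000548, unblocked 0.0562). Dcn, the proteoglycan decorin, measured 17.2, 35.8 and 27.3 CPM and then 50.3, 60.4 and 55.2 CPM (0.000412, against 0.0859). Other members differed more between replicate numbers than between times. Col1a2, a chain of collagen I, measured 47, 302 and 191 CPM and then 70.8, 352 and 215 CPM (0.0173, against 0.91), and Col3a1, Col6a1, Postn and Tnc showed the same order of replicates. Replicate 1 was the lowest of each time for all of these. Of 16 markers of theca and stroma tested, a list that overlaps this one, 1 fell unblocked, Aldh1a1, and 6 were higher and 1 lower with the block, while the androgen enzyme Cyp17a1, which defines theca cells, stayed at 0.101 to 0.267 CPM. Their part in the matrix result was not tested.

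Of 28 basement membrane genes 1 rose and 1 fell, and 5 were higher and 5 lower with the block. Over all tested genes 0.764% rose and 0.666% fell, and 6.22% and 4.79% did so with the block. Lama1, a laminin chain, rose from 649, 616 and 642 CPM to 775, 779 and 771 CPM (1.22-fold, adjusted p 0.0152). Tinagl1, a secreted basement membrane protein, fell from 634, 601 and 642 CPM to 421, 463 and 443 CPM (1.41-fold, adjusted p 0.0114). Col4a3 and Col4a4, collagen IV chains encoded side by side, were lower with the block (log2 -0.69 and -0.71). Of 38 proteases and inhibitors 2 rose unblocked, Ctsl, cathepsin L (631, 595 and 642 CPM, then 780, 739 and 760 CPM), and Plat, tissue plasminogen activator (98.6, 98.8 and 97.7 CPM, then 117, 111 and 112 CPM), and 12 were higher and 7 lower with the block. Adamts5, an aggrecan-cleaving protease, measured 378, 182 and 273 CPM and then 156, 118 and 135 CPM (blocked 0.000303, unblocked 0.106).

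**Figure D4:**
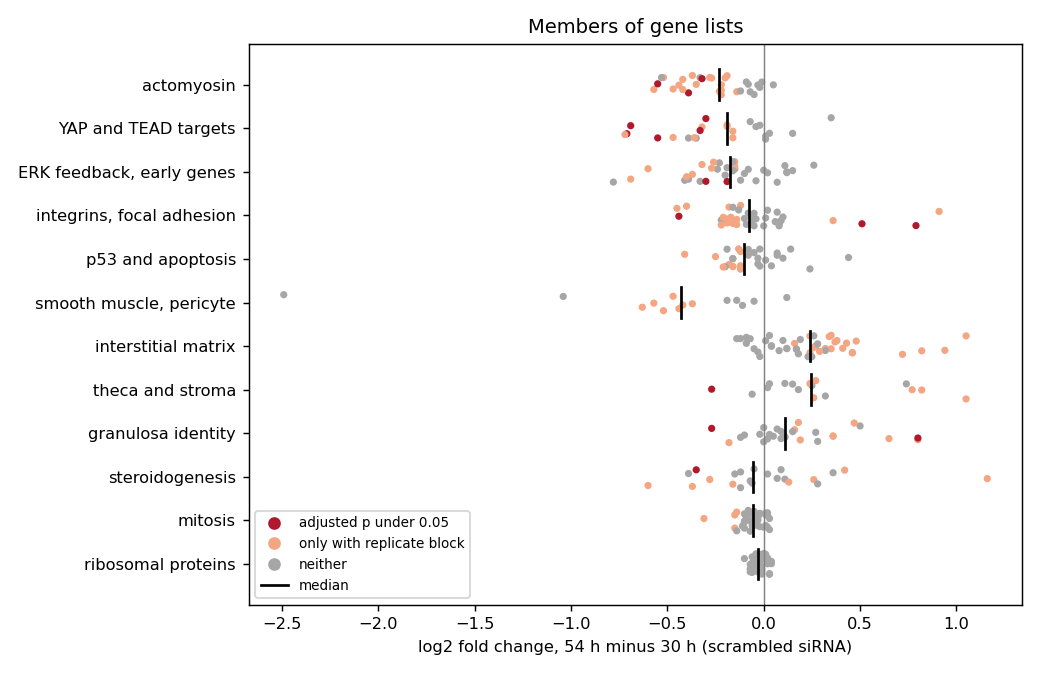
Log2 fold changes from 30 h to 54 h (x axis) of the tested members of 12 gene lists (rows), each point a gene coloured by whether it passed an adjusted p of 0.05 unblocked, with the replicate block only, or in neither, and a bar at the list median. Of the 12 lists, smooth muscle and pericyte markers lie furthest to the left (median -0.43). Actomyosin and YAP and TEAD targets also lie to the left (-0.23 and -0.19). Theca and stroma and interstitial matrix lie to the right (0.25 and 0.24), and mitosis and ribosomal proteins near 0.

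Of a panel of 22 granulosa genes, 0 passed in the unblocked test, and 8 passed with the block, 7 higher and 1, Cyp11a1, lower. Foxl2 measured 176, 154 and 144 CPM at 30 h and 190, 155 and 167 CPM at 54 h (log2 0.11 ± 0.09, adjusted p 0.604). Inha had a log2 change of 0.02 ± 0.03, Nr5a1 of 0.00 ± 0.04 and Gata4 of -0.02 ± 0.04. Fst, follistatin, which neutralises activin, measured 45.9, 72.4 and 63.3 CPM and then 83.2, 106 and 96.6 CPM, a blocked log2 change of 0.67 ± 0.05 (0.000105, against 0.117 unblocked). Gja1, the gap junction protein connexin 43, measured 1132, 1414 and 1349 CPM and then 1631, 1716 and 1660 CPM (0.00168, against 0.0836). Esr2, oestrogen receptor beta, measured 61, 60.9 and 62.1 CPM and then 74.7, 65.5 and 67.7 CPM (0.0256, against 0.152). Hsd3b1, Amhr2 and Wt1 were higher with the block by 0.26, 0.18 and 0.17 on the log2 scale. Lhcgr, the LH receptor, passed it too, at under 1 CPM in all libraries. Not passing in either fit were Esr1, Fshr, Amh, Inha, Inhba, Cyp19a1, Star, Nr5a1, Nr5a2, Ccnd2, Kitl, Gata4, Runx1 and Foxl2. Of the wider list of 28 granulosa genes, 1 rose, Nap1l5, a nucleosome assembly protein (13.8, 18.4 and 16.7 CPM, then 23.7, 31.4 and 30 CPM, 1.74-fold), and 1 fell, Emx2, a homeobox factor (122, 122 and 120 CPM, then 98.6, 101 and 102 CPM, 1.21-fold). With the block 9 of the 28 were higher and 2 lower.

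Of 22 steroidogenic genes, 1 fell unblocked, and 4 were higher and 5 lower with the block, where 6.22% of all tested genes were higher and 4.79% lower. Cyp11a1, the side-chain cleavage enzyme that makes pregnenolone, measured 2276, 2755 and 2608 CPM and then 1875, 2028 and 2016 CPM (blocked 0.000598, unblocked 0.0674). Fdx1, the ferredoxin that passes electrons to it, fell from 521, 559 and 531 CPM to 411, 426 and 429 CPM in both fits (1.27-fold, adjusted p 0.0152), and its reductase Fdxr was lower with the block by 0.16 on the log2 scale. Scarb1, the HDL receptor, was lower with the block as well (295, 301 and 309 CPM, then 228, 268 and 252 CPM). Star had a log2 change of -0.06 ± 0.04. Hsd11b2, which inactivates glucocorticoids, measured 14.8, 25.5 and 28.8 CPM and then 51.7, 50.2 and 52.7 CPM (blocked 0.000818, unblocked 0.0564).

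Lipid handling and retinoid genes gave some of the most abundant calls. Aldh1a1, a retinaldehyde dehydrogenase and the most abundant called gene, fell from 4731, 4997 and 5004 CPM to 4044, 4088 and 4070 CPM (1.21-fold, adjusted p 0.0174). Rdh10, which makes retinaldehyde, rose 1.57-fold from 11.6, 15.2 and 12.5 CPM to 19.4, 21.8 and 20.4 CPM (adjusted p 0.0373), so with Cyp26b1 1 of 16 retinoid genes rose and 2 fell, and 4 were higher and 2 lower with the block. Lpl, lipoprotein lipase, rose from 1070, 1134 and 1151 CPM to 1475, 1345 and 1449 CPM (1.27-fold, adjusted p 0.0267), Soat1, which esterifies cholesterol, rose 1.15-fold and Fabp5, a fatty acid carrier, fell 1.48-fold. Fam198b, also among the 6 most abundant called genes, fell 1.19-fold. Of 26 cholesterol synthesis genes 0 passed unblocked and 1 with the block, where 11% of all tested genes passed.

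Among growth factor pathways, the TGF-beta, activin and BMP list had 1 rise, Grem1, and 1 fall, Smad7, an inhibitory Smad (60, 62.5 and 58.8 CPM, then 49.3, 52.6 and 49.6 CPM), of 50 tested, and 14 higher and 7 lower with the block. Bmp2 and Bmpr1b were higher there and Tgfb2 lower (log2 0.68, 0.37 and -0.49). Of 38 Wnt genes Fzd1, a frizzled receptor, rose 1.38-fold (25.1, 25.3 and 24.6 CPM, then 37.4, 33.3 and 32.5 CPM), and of 15 Notch genes Hey2, a Notch target, rose 1.44-fold. With the block 7 Wnt genes were higher and 2 lower, and 2 Notch genes were higher and 4 lower. Over all tested genes 1.43% passed unblocked and 11% with the block, so 1 unblocked call in such a list says little about the list. Cxcl12, a chemokine, was lower with the block at 17.1, 31.5 and 25.7 CPM against 38.2, 56.7 and 46.8 CPM (3.4e-05, against 0.111), and Il1r1, the interleukin 1 receptor, higher at 84.4 to 87.1 CPM against 52.6 to 69.2 CPM (0.000606, against 0.0527). Vldlr, a lipoprotein receptor induced by the integrated stress response, rose 1.18-fold and Txnrd1, a thioredoxin reductase under NRF2, fell 1.18-fold. In the ribosomal protein list of 41 and the antigen presentation list of 18, 0 genes passed edgeR's test in either fit; their smallest unblocked adjusted p-values were 0.447 for Rpl38 and 0.171 for Tapbp.

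Markers of other cell types were uneven. Of 15 surface epithelium markers tested, 7 were higher and 2 lower with the block and 0 passed unblocked, and their summed level went from 585 to 617 CPM to 613 to 668 CPM. Upk3b, which defines that layer, measured 7.58, 18.2 and 13.8 CPM and then 13.6, 34.2 and 24.8 CPM (blocked adjusted p 3.4e-05, unblocked 0.325), while Krt7, the other defining marker, lay at 1.47 to 5.74 CPM (log2 change -0.08, adjusted p 0.961). The 2 lower ones were the keratins Krt8 and Krt18. Leukocyte, erythroid and oocyte markers summed to under 7 CPM in each library, with Ptprc, Adgre1 and Zp3 at 1, 1 and 2 counts over the 6 libraries and Hba-a1 and Hbb-bs at 0. Gdf9, the other defining oocyte marker, had 70 counts at 30 h and 61 at 54 h (0.326 to 0.591 CPM). Ddx4, also on the oocyte list, lay at 1.92 to 3.14 CPM. Endothelial markers summed to 13.5 to 33.5 CPM, with Pecam1 at 0.793 to 1.23 CPM and Cdh5 at 0.154 to 1.12 CPM. For Upk3b, Krt7 and Myh11 replicate 1 was the lowest library of each time. The part of these cells in the time differences was not tested.

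The Foxl2 siRNA libraries gave the time contrast in cells that the scrambled comparison does not use. Foxl2 itself lay at 33.7, 28.2 and 65.1 CPM there at 30 h and 33.7, 57.2 and 25 CPM at 54 h, below the scrambled range in each library but with the 30 h replicate 3 and 54 h replicate 2 libraries higher than the others. In these, 717 of 14825 genes (4.84%) passed between the times, 407 higher (2.75%) and 310 lower (2.09%). Of the 206 genes called in scrambled cells 131 kept their sign (63.6%), close to the 60.1% of all tested genes that did. The median log2 change of the 110 higher genes went from 0.48 in scrambled to 0.14 in Foxl2 siRNA cells, and that of the 96 lower genes from -0.35 to -0.07. Called in both with the same sign were 24 genes and with opposite sign 2, Rtn1 and Stim1. Of all 14405 genes in both contrasts, 559 were called with Foxl2 siRNA and had the sign of the scrambled change, and 137 were called with the opposite sign.

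Several leading genes kept their change. Lce1g had a log2 change of -2.16 in scrambled and -1.97 in Foxl2 siRNA cells (adjusted p 0.0126), Camkv of 1.54 and 1.53 (0.029) and Cyp26b1 of -0.74 and -1.33 (0.0382). Others gave small or opposite values that did not pass: Grem1 0.29, at 0.902 to 12.2 CPM in all 6 Foxl2 siRNA libraries, Ankrd1 -0.35, Cyr61 -0.04, Actb 0.03, Cnn2 0.06, Fn1 -0.13 and Fst -0.44. Itgb3 had -0.53 and Nap1l5 -1.25. The actin and YAP lists had medians of 0.08 and 0.03 there. Such contrasts do not show a difference in themselves. The edgeR test of the difference between the time changes called 0 of the 206 genes and 1 gene of 14825 (0.00675%). Its unadjusted p was under 0.05 for 77 of the 206 and for 1372 of the 14405 genes in both contrasts. The 206 were selected for their scrambled change, which is 1 side of this difference, so the 77 are not independent of that choice.

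**Figure D5:**
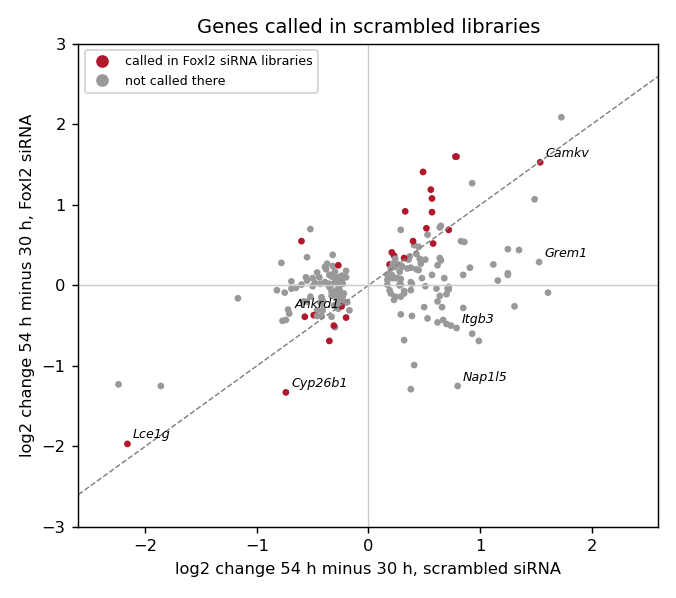
Log2 change from 30 h to 54 h in scrambled (x axis) and in Foxl2 siRNA (y axis) libraries for the 206 genes called in scrambled cells, each point a gene, red where it was also called with Foxl2 siRNA; the dashed line marks equal changes. Of these, 131 share a sign, Camkv and Lce1g lie near the line, and Grem1, Itgb3 and Ankrd1 lie off it.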

How the data were processed

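Counts of reads per gene, whole numbers and not normalized, were used as the authors deposited them, 1 table for each library. Per the submitters' processing notes bcl2fastq 2.15.0, TopHat2, DESeq2 and mm10 were used; no source used here names the counter, the annotation or its strand setting. Per the labels' protocols libraries were stranded poly(A) libraries. In 1 scrambled library at 30 h, 15 symbols turned into dates were restored by row. A deposited table of all libraries, with 45 empty cells, differed in 0 others.

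The 6 scrambled libraries were paired by number because same-numbered libraries deviated together, and fitted without and with that block with edgeR 4.0.16 in R 4.3.3 (TMM scaling, filterByExpr, quasi-likelihood test, two-sided, Benjamini-Hochberg adjustment over 14407 genes; 10083 were not tested). Pairing asked for a correlation over 0.1 for each number, computed from the same counts that the blocked fit uses. The blocked fit had 2 residual degrees of freedom, against 4 unblocked, and its p-values take the pairing as known. The Foxl2 siRNA contrast and the difference between time changes came from 1 fit of 12 libraries. Levels are TMM-scaled CPM, except summed lists and the levels of Cyp17a1, Cspg4, Gdf9 and Sox9 (CPM without TMM scaling), and are compared only within a gene. A count of 3 equals 0.0505 to 0.0667 CPM, covering counting error only. Replicates differed beyond sampling noise (chi-square per degree of freedom 6.85 to 36). An exact permutation test of 3 against 3 libraries has 0.1 as its smallest p and was not run.

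Genes were named by rule: the 12 largest changes per direction among called genes with at least 1 CPM and the same direction in all 3 pairs, a granulosa panel, up to 4 called members per list and direction or otherwise the 2 with the smallest p, the 6 genes with the smallest p for the difference between time changes, and the 6 most abundant called genes; 1 of the 12 with the largest rise is not reported here. Members that passed with the block alone, the members Yap1, Wwtr1 and Ajuba of the YAP list, and the opposite pair Rtn1 and Stim1 were chosen after their values were seen. The members and all 47 gene lists were chosen with earlier results of these data known. RefSeq (GRCm38.p6) matched 13842 genes by symbol and 525 by older symbol. The steps were tested on simulated data. Alternatives were other scalings, no filter, DESeq2 1.42.0, limma 3.58.1 voom, other library sets, leaving out libraries and the replicate block.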

Additional observations from a re-analysis of the deposited data

Results flagged for a closer look

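Gadd45b, a growth arrest and stress gene, was the single gene whose time change differed between the siRNAs by the edgeR test of the difference. It measured 30.9, 29.5 and 28 CPM at 30 h and 20.4, 25.7 and 22.9 CPM at 54 h in scrambled cells, and 45.3, 51.4 and 50.4 CPM and then 86.5, 77 and 80.4 CPM in Foxl2 siRNA cells. It went down in all 3 scrambled pairs and up with Foxl2 siRNA, where no 54 h library overlapped the 30 h ones. The log2 difference of the changes, Foxl2 siRNA minus scrambled, was 1.09 ± 0.12 with an adjusted p of 0.038. Over 18 alternatives the difference lay between 1.01 and 1.17, the adjusted p between 6.17e-11 and 0.232, and 7 of them called it.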

How the results depend on the processing

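The 206 calls of the time comparison became 206 with upper-quartile scaling, 205 with DESeq2 size factors, 231 without the filter and 214 with voom. They became 1586 with the replicate block, 766 with DESeq2, 1 with all 15 libraries in 1 fit and 60 with the 9 libraries without Foxl2 siRNA, and 0 to 287 when single libraries were left out. Alternatives chosen after seeing the data gave 1008 with DESeq2 and the block, and 1764, 2000 and 456 with the block when both libraries of number 1, 2 or 3 were left out. The Foxl2 siRNA time calls, 717, became 1651 with DESeq2 and 197 to 2484 when single libraries were left out, highest without the 54 h replicate 2 library; the block gave 888, but the Foxl2 siRNA numbers did not pair (correlations 0.667, -0.258 and -0.297; 0.551 between number 2 at 30 h and number 3 at 54 h, and 0.649 between number 3 at 30 h and number 2 at 54 h). The single call of a difference in time change became 0 with upper-quartile scaling, 0 with the block, 192 with DESeq2 and 0 to 684 when single libraries were left out, highest without the same library. The 131 genes with a shared sign became 1040 of 1586 with the block and 0 to 196 when single libraries were left out. The causes of these shifts were not tested, though counts of shared signs follow the number of genes called. Of 123 genes named by rule, 57 were called, and 0 of these changed sign in any alternative. The times did not overlap for any of the 206 called genes, so that 0 followed largely from the selection and does not show stability. With the block all 57 passed, as did all 206, and without either replicate 3 library 0 passed. A count of 3 corresponds to 0.0505 to 0.0667 CPM, and depth cannot resolve levels under it.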

Other observations

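ERCC spike-ins took a larger share of the counts at 54 h in all 3 scrambled pairs, at 0.352% against 0.26%, 0.226% against 0.127% and 0.201% against 0.105%, ratios of 1.35, 1.77 and 1.92. In Foxl2 siRNA pairs the ratios were 0.487, 1.5 and 0.548. The fits did not scale on them, so every change given is relative to the total of genes, and a shift shared by all genes was not tested.

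Clustered histone genes had a median log2 change of 0.07 over 27 tested in scrambled cells, with 0 called in either fit of edgeR, and of 0.82 in Foxl2 siRNA cells, with 4 higher. Mitosis genes had medians of -0.06 and -0.61. Sox9, a Sertoli cell gene, lay at 7.96 to 10.1 CPM in the scrambled libraries. Of 19 complement and acute phase genes 5 were higher with the block and 0 lower, and of 31 inflammatory cytokine genes 5 were higher and 7 lower, with 0 called in either list by edgeR unblocked. After Gadd45b, the smallest adjusted p-values for the difference between time changes in edgeR were 0.109 for Rtn1, 0.113 for Robo2, and 0.171 for Bcar1, Msrb3 and Cpq. Oxidative phosphorylation genes were slightly negative in 30 of 36, with a median of -0.04 and 2 lower with the block, near the 4.79% of all tested genes.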
